A study of Mus musculus with 6 samples.

Results

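The genes described here are 41 genes of macrophages and other white blood cells, measured in mouse hearts at embryonic stage E12.5. Each has 1 annotated symbol in the platform annotation, and where a gene had several transcript clusters (the array's unit of 1 gene or part of a gene) the one with the highest mean signal was kept, which applied to Dab2 alone. All 41 were measured, among 28767 transcript clusters that stand for 19933 named genes. The list was put together with the difference between knockout and wild-type hearts on these same arrays in view, so some members were chosen by the values reported below. Every member difference is therefore given as a description, without a test, and a shared direction of the members is no evidence of its own.

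RNA came from 3 heart samples labelled wild type and 3 labelled knockout for β1 integrin, the receptor chain encoded by Itgb1 that pairs with many α chains to bind extracellular matrix. Each sample was hybridised to 1 Affymetrix Mouse Gene 1.0 ST array. All samples are whole hearts of the same embryonic stage, before dysfunction was evident according to the design text. The labels name no strain, allele or Cre driver and do not say which cells lack the gene, or whether a sample was 1 embryo or a pool. The samples are described as biological replicates, and each is called a heart below. Values are log2 signals, on which a difference of 1 is a doubling.

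Macrophages reach the heart early in its development, first from yolk sac progenitors and later also from monocytes of the fetal liver, and they clear dying cells and support growing vessels and valves. Their survival depends on the receptor encoded by Csf1r, and their identity on the transcription factor PU.1, encoded by Spi1. They share much of their gene expression with other white blood cells, such as the surface phosphatase CD45 (Ptprc), the β2 integrins and the actin-binding proteins of motile cells. Other genes serve the handling of microbes and debris, among them the oxidase subunit Cybb, the pore-forming protein Mpeg1, lysozymes and the Fc receptors. In whole hearts, fewer cells of a type and less RNA per cell cannot be told apart.

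Some features of the hearts stand beside these genes' values. Itgb1 itself was 11.76, 11.80 and 11.78 in wild-type hearts 1 to 3 and 11.53, 11.42 and 11.65 in knockout hearts 1 to 3, lower in each knockout heart by less than 1 log2 unit. No cluster of the array passed an adjusted p of 0.05 (limma, Benjamini-Hochberg), that is 0% of 28767, while 1705 had an unadjusted p under 0.05. Knockout heart 1 stood apart in blood genes. The mean of 10 measured megakaryocyte genes lay 1.66 above the wild-type mean in it, against 0.14 and 0.01 in knockout hearts 2 and 3, and that of 13 erythroid genes lay 1.14 above, against -0.08 and -0.05. The hearts also differed in sex markers: Xist, expressed from the inactive X chromosome, was 8.37, 11.26 and 4.86 in wild-type hearts against 8.28, 5.71 and 5.01 in the knockout hearts, and the Y-linked Eif2s3y was 9.35, 5.77 and 9.32 and 9.12, 9.37 and 9.41. Wild-type heart 2 was thus high in Xist alone, hearts 1 of each group carried both signals, and the remaining 3 carried the Y-linked signal with low Xist.

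Cybb, Mpeg1 and Laptm5 were higher in every knockout heart, Laptm5 by the most in heart 1, and C1qc differed little. The upstream sequences of these 4 members are shown as examples of the behaviours described below. They are the 250 bases before the annotated start in RefSeq (GRCm38.p6), at chrX:9469325-9469574 on the minus strand for Cybb, chr19:12460520-12460769 on the plus strand for Mpeg1, chr4:130913066-130913315 on the plus strand for Laptm5 and chr4:136892915-136893164 on the minus strand for C1qc. Capitals mark matches, on either strand, to GAGGAAG, a form of the site bound by PU.1, and to TGTGGT, the core site of RUNX factors. These motifs do not overlap each other in letters.
Cybb: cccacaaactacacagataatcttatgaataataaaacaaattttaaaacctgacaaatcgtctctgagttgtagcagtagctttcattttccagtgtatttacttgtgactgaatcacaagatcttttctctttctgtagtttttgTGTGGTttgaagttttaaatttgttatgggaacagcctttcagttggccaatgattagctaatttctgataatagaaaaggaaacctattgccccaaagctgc
Mpeg1: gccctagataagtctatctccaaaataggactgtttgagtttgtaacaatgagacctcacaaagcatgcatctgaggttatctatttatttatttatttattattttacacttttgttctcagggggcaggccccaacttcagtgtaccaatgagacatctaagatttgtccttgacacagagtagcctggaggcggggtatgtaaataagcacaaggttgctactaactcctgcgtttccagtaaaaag
Laptm5: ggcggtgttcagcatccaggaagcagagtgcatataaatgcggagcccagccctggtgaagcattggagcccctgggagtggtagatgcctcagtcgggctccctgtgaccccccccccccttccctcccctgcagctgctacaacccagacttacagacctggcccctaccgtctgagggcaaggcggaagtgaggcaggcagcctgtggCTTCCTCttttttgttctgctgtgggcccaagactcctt
C1qc: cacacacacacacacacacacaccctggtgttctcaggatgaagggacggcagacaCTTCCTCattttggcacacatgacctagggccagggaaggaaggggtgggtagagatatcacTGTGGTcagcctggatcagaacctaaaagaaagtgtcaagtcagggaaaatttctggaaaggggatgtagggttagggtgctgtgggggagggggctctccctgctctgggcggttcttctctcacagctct
Cybb has a RUNX match 103 bases before its start, Laptm5 a PU.1 match 39 bases before, and C1qc a PU.1 match 194 and a RUNX match 132 bases before. Mpeg1 has neither. Of 32 members with a sequence in the RefSeq table, 8 hold GAGGAAG in such a window (25%), against 12% of all 27025 genes there, and 8 hold TGTGGT (25%), against 15.9%. Among the 10 of them whose knockout values all lay above the wild-type values, 2 hold GAGGAAG (F13a1 and Laptm5) and 2 hold TGTGGT (Gpnmb and Cybb). A match is a stretch of letters and does not show that a factor binds there.

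Over the whole set, 34 of 41 members were higher by mean in knockout hearts and 7 a lower one, where 46.5% of all clusters were higher. In 15 members every knockout heart lay above every wild-type heart, against 6.01% of all clusters, and in 1, Cd48, every knockout heart lay below, against 6.61%. As the list was chosen on this contrast, nothing is read from these shares. The median difference, knockout minus wild type, was 0.20 (log2) over the members and -0.01 over all clusters. Members ranged from -0.40 for Lyz2 to 1.13 for Gpnmb. 22 of the 41 had a mean signal below the median of all clusters, 6.67, and 5 lay under the lower quartile, 5.18, where arrays tend to compress differences.

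**Figure D1:**
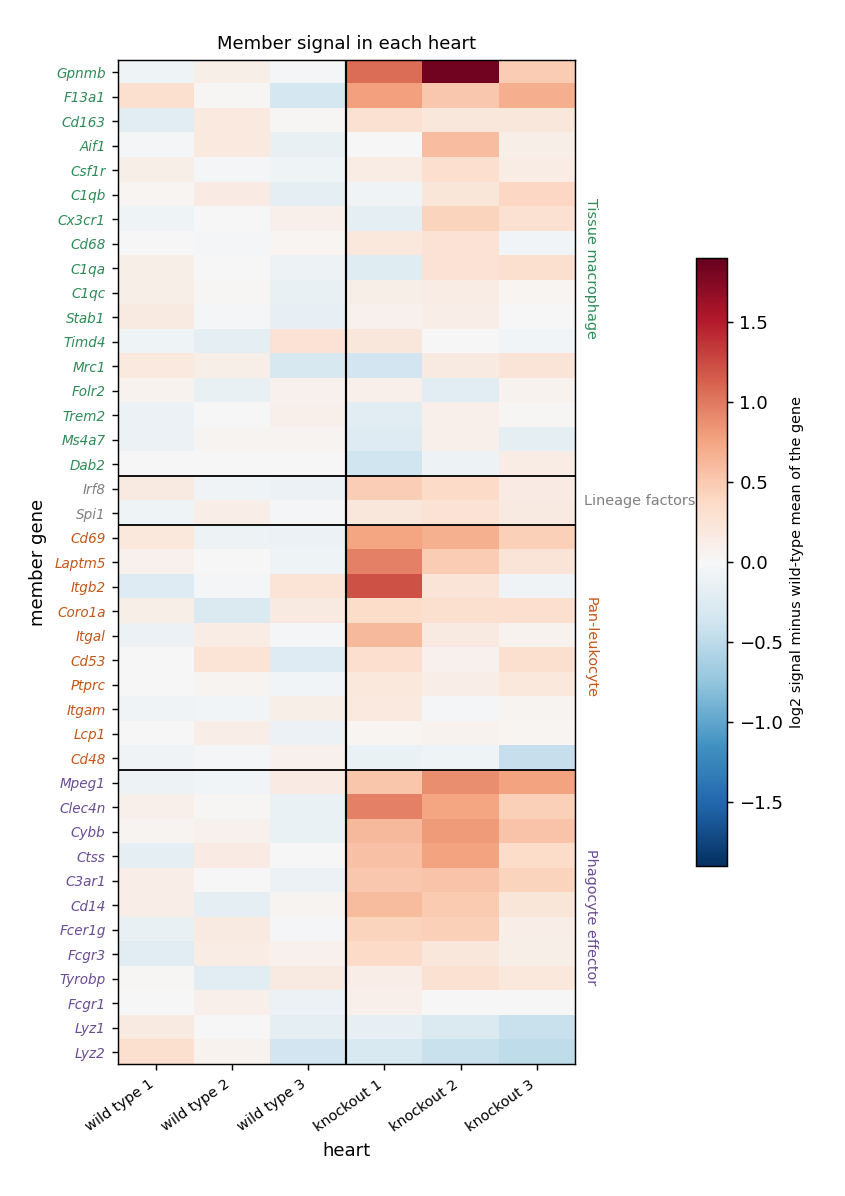
Heat map of the 41 members (rows, grouped by role and sorted by difference) in the 6 hearts (columns). Colour gives the log2 signal minus the wild-type mean of the gene. The largest deviation is that of Gpnmb in knockout heart 2, and Lyz1 and Lyz2 at the bottom are lower in the knockout hearts.

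With all hearts, the markers of tissue macrophages had the smallest median difference of the roles. Of 17, 13 were higher by mean and 4 lower, with a median difference of 0.12. Without knockout heart 1 this median was 0.21, and that of the pan-leukocyte genes was smaller, at 0.14. With all hearts, the values of 4 of the 17 lay wholly above wild type, against 6.01% of all clusters. Csf1r, the receptor for the macrophage growth factors CSF1 and IL-34, was 7.71, 7.58 and 7.51 in wild-type hearts against 7.73, 7.91 and 7.74 in knockout hearts. The knockout hearts were all higher, though knockout heart 1 exceeded wild-type heart 1 by little, and the difference was 0.20 ± 0.10 (SE). The receptor for fractalkine, Cx3cr1, was 7.33, 7.39 and 7.50 in wild-type hearts against 7.23, 7.83 and 7.70. Knockout heart 1 was the lowest of all 6 and the other knockout hearts were the highest, so the difference of 0.18 ± 0.15 was 0.35 without that heart and 0.06 without knockout heart 2. Cd68, a lysosomal glycoprotein, was 7.17, 7.12 and 7.19 against 7.36, 7.43 and 7.11, with knockout heart 3 below every wild-type heart. Aif1, the calcium-binding protein IBA1, was 5.28, 5.51 and 5.19 against 5.32, 5.92 and 5.43, and only knockout heart 2 lay above all wild-type hearts. Its difference was 0.23 ± 0.17, 0.35 without knockout heart 1 and 0.05 without knockout heart 2.

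The subunits of complement C1q, which tags dying cells and debris for uptake, are encoded side by side by C1qa, C1qc and C1qb. C1qa was 7.16, 7.05 and 6.96 in wild-type hearts against 6.82, 7.34 and 7.36 in knockout hearts. C1qb was 6.92, 7.04 and 6.70 against 6.82, 7.11 and 7.28, and C1qc 6.83, 6.75 and 6.58 against 6.83, 6.87 and 6.75. All 3 overlapped between the groups, with differences of 0.12, 0.18 and 0.10. For C1qa, knockout heart 1 was the lowest heart of the series and knockout hearts 2 and 3 were the highest. Its difference ran from 0.02 to 0.29 over the alternatives, the highest without knockout heart 1.

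Several receptors and adaptors of endocytosis and scavenging overlapped too. Mrc1, the mannose receptor, was 7.72, 7.65 and 7.23 in wild-type hearts against 7.17, 7.71 and 7.78 in knockout hearts, with the lowest value in knockout heart 1. Its difference of 0.02 ± 0.19 took either sign, from -0.13 to 0.21, when single hearts were left out. Stab1, a scavenger receptor that endothelium also makes, was 9.34, 9.13 and 9.01 against 9.24, 9.28 and 9.17, a difference of 0.07. Dab2, an endocytic adaptor made by several cell types, was 9.93, 9.94 and 9.95 against 9.56, 9.84 and 10.08. It was nearly the same in all wild-type hearts and spread widely in the knockout hearts, lowest in heart 1 and highest in heart 3. The folate receptor gene Folr2 differed by -0.01, the lipid receptor gene Trem2 by -0.03, the phosphatidylserine receptor gene Timd4 by 0.05 and the membrane protein gene Ms4a7 by -0.11, each with an SE of 0.11 to 0.14. Stab1, Folr2, Timd4 and Dab2 turned sign when single hearts were left out, Ms4a7 under array weights, which count variable arrays less, and Trem2 under both.

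The haemoglobin scavenger receptor gene Cd163 had a low signal, at 3.88, 4.29 and 4.12 in wild-type hearts against 4.38, 4.31 and 4.32 in knockout hearts. The knockout hearts lay close together and just above the highest wild-type heart, a difference of 0.24 ± 0.12. F13a1 encodes the A subunit of coagulation factor XIII, which resident macrophages make and which megakaryocytes and platelets also carry. It was 7.30, 7.01 and 6.66 in wild-type hearts against 7.77, 7.51 and 7.68 in knockout hearts. All knockout hearts were higher, and the difference was 0.66 ± 0.16, or 0.60 without knockout heart 1, in which the megakaryocyte genes were high.

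Gpnmb had the widest difference of the members. It encodes a membrane glycoprotein that macrophages with a heavy lysosomal load induce and that pigment cells also make. Its signal was 5.29, 5.48 and 5.34 in wild-type hearts against 6.43, 7.21 and 5.86 in knockout hearts. Each knockout heart was above the wild-type hearts, which lay within 0.20 of each other, but the knockout hearts spread over 1.35. The difference was 1.13 ± 0.30, or 2.18-fold, and 0.77 without knockout heart 2.

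**Figure D2:**
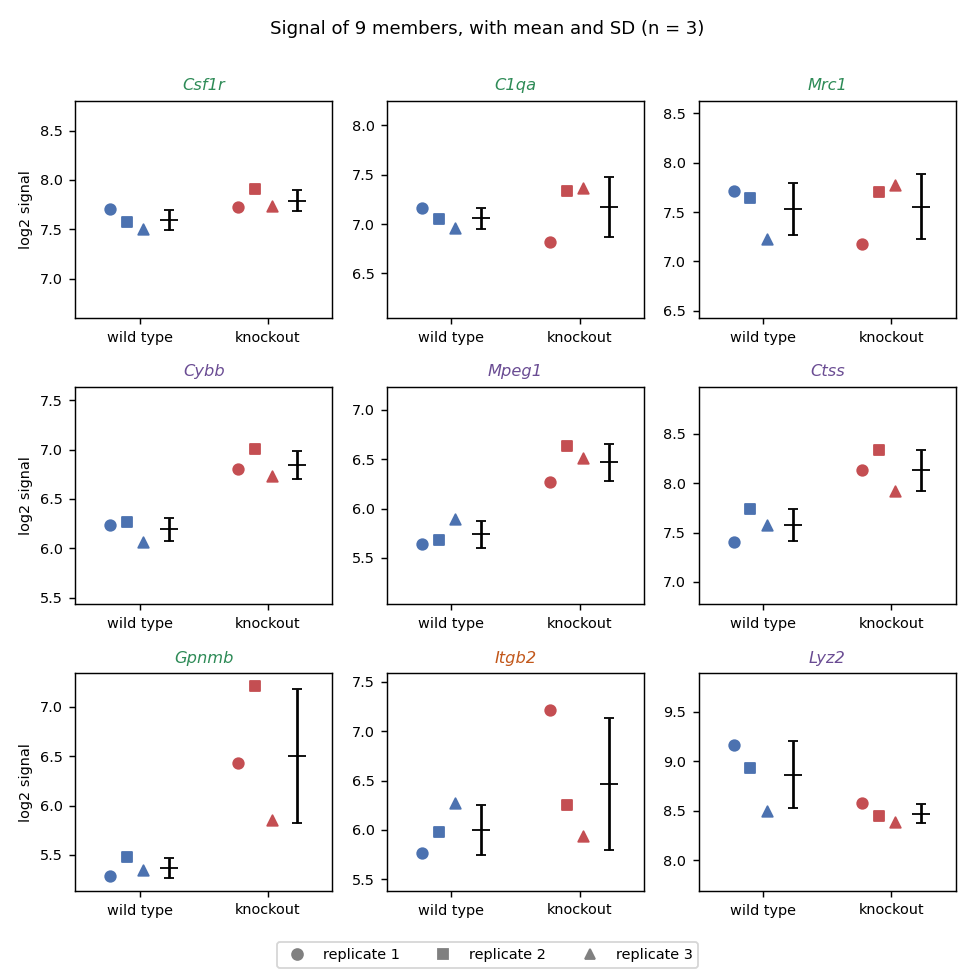
Log2 signal of 9 members (title colours: green for tissue macrophage, orange for pan-leukocyte, purple for phagocyte effector genes) in wild-type and knockout hearts, each axis spanning 2.2 log2 units. Symbols mark replicates, and the bar is the mean with SD of 3 hearts. Csf1r (by little), Cybb, Mpeg1, Ctss and Gpnmb show no overlap, C1qa and Mrc1 are lowest in knockout heart 1, and Itgb2 is highest in it.

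Both transcription factors of the set had higher means in the knockout hearts. Spi1 was 5.53, 5.74 and 5.58 in wild-type hearts against 5.83, 5.89 and 5.78 in knockout hearts, without overlap and with a difference of 0.22 ± 0.09. Irf8, which directs monocyte and macrophage development, was 6.96, 6.73 and 6.68 against 7.26, 7.15 and 6.94. Knockout heart 3 lay just under the highest wild-type heart, and the difference was 0.33 ± 0.12.

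Genes shared by most white blood cells came next. Of 10 pan-leukocyte members 9 were higher by mean and 1 lower, with a median difference of 0.26. In 4 the knockout values lay wholly above the wild-type values, against 6.01% of all clusters. Ptprc was 6.06, 6.12 and 6.01 in wild-type hearts against 6.26, 6.18 and 6.26 in knockout hearts, a small difference of 0.17 ± 0.08 without overlap. Laptm5, a lysosomal membrane protein of blood cells, was 7.61, 7.55 and 7.45 against 8.49, 8.01 and 7.79. All knockout hearts were higher and heart 1 the most, so that the difference of 0.56 ± 0.17 was 0.36 without it. Coro1a, an actin-binding coronin of leukocytes, was 6.63, 6.25 and 6.70 against 6.87, 6.83 and 6.84. The knockout hearts lay within 0.04, wild-type heart 2 was low, and the difference of 0.33 ± 0.13 was 0.19 without wild-type heart 2. Cd69, an early activation antigen of lymphocytes and other leukocytes, was dim but separated, at 4.16, 3.86 and 3.85 against 4.71, 4.64 and 4.41 and a difference of 0.63 ± 0.12.

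The integrin chains of leukocytes were highest in knockout heart 1. Itgb2, the β2 chain shared by these receptors, was 5.76, 5.98 and 6.27 in wild-type hearts against 7.22, 6.25 and 5.94 in knockout hearts. Knockout heart 1 alone was above the wild-type range, within which hearts 2 and 3 lay, and the difference of 0.46 ± 0.31 was 0.09 without heart 1. Itgal, the αL chain of lymphocyte function-associated antigen, was 5.65, 5.89 and 5.72 against 6.37, 5.92 and 5.82, with 0.29 for all hearts and 0.12 without heart 1. Itgam, the αM chain of complement receptor 3, was 5.17, 5.18 and 5.34 against 5.42, 5.20 and 5.28, a difference of 0.07 ± 0.10. The plastin gene Lcp1 differed by 0.05, with a change of sign without 1 of the hearts, and the tetraspanin gene Cd53 by 0.23, both with overlap. Cd48, a ligand of lymphoid and myeloid receptors, went the other way, at 4.56, 4.60 and 4.71 in wild-type hearts against 4.50, 4.54 and 4.19 in knockout hearts. All knockout hearts were lower, heart 3 by the most, and the signal lay under the lower quartile of all clusters.

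The phagocyte effector genes held more members without overlap than any other role. Of 12, 10 were higher by mean and 2 lower, 6 lay wholly above the wild-type values, and the median difference was 0.39. Over all clusters 46.5% were higher and 6.01% wholly above, and as the members were chosen on this contrast nothing is read from the count. Cybb encodes the catalytic subunit of the oxidase that makes superoxide in phagocytes. Its signal was 6.24, 6.27 and 6.06 in wild-type hearts against 6.80, 7.00 and 6.73 in knockout hearts. The knockout hearts all exceeded the wild-type hearts by more than the spread of either group, with a difference of 0.65 ± 0.11 or 1.57-fold. Cybb is X-linked. In the 3 hearts with low Xist and the Y-linked signal, it was 6.06 in wild-type heart 3 and 7.00 and 6.73 in knockout hearts 2 and 3. The part of sex in the Cybb difference was not tested.

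Mpeg1, or perforin-2, inserts pores into engulfed bacteria. It was 5.64, 5.69 and 5.89 in wild-type hearts against 6.27, 6.63 and 6.51 in knockout hearts, a difference of 0.73 ± 0.12 or 1.66-fold. Knockout heart 1 was the lowest of the knockout hearts, and without it the difference was 0.83. Clec4n, which encodes the fungal sugar receptor dectin-2, was 4.46, 4.39 and 4.24 against 5.32, 5.12 and 4.82. All knockout hearts were higher, heart 1 the most, with a difference of 0.72 ± 0.14. The mean signal of Clec4n lay under the lower quartile of all clusters, 5.18, and those of Cybb and Mpeg1 below the median, 6.67. C3ar1, the receptor for complement fragment C3a, was 6.92, 6.78 and 6.67 against 7.30, 7.33 and 7.21. The knockout hearts lay within 0.12 of each other, and the difference was 0.49 ± 0.10. The lysosomal protease gene Ctss was 7.41, 7.73 and 7.58 against 8.13, 8.34 and 7.92, with every knockout heart higher and a difference of 0.56 ± 0.13. Cd14, a co-receptor for bacterial lipopolysaccharide, was 5.74, 5.42 and 5.66 against 6.21, 6.10 and 5.83, again without overlap, at 0.44 ± 0.13.

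The Fc receptors and their signalling chains differed less. Fcgr1, the high-affinity IgG receptor, was 6.39, 6.48 and 6.28 in wild-type hearts against 6.48, 6.39 and 6.38 in knockout hearts, a difference of 0.03 ± 0.09 that turned sign under array weights and without wild-type heart 3. Fcgr3, a low-affinity IgG receptor with close relatives in its family, differed by 0.23 ± 0.12. The adaptor chain gene Fcer1g was 6.49, 6.80 and 6.61 against 7.06, 7.09 and 6.75. Knockout heart 3 lay below wild-type heart 2, and the difference was 0.34 ± 0.13. Tyrobp, the adaptor DAP12, differed by 0.20 ± 0.11, with overlap.

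The lysozyme genes were the lower members of this role. Lyz2, the lysozyme of macrophages and neutrophils, was 9.17, 8.94 and 8.49 in wild-type hearts against 8.58, 8.44 and 8.39 in knockout hearts, and Lyz1 was 8.36, 8.21 and 8.02 against 8.04, 7.92 and 7.78. Knockout heart 1 overlapped with wild-type heart 3 in both, and the knockout hearts lay close together. The differences were -0.40 ± 0.17 and -0.28 ± 0.12. Lyz1 and Lyz2 are neighbouring, near-identical copies, so their probes may read both and the pair is not a second observation.

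**Figure D3:**
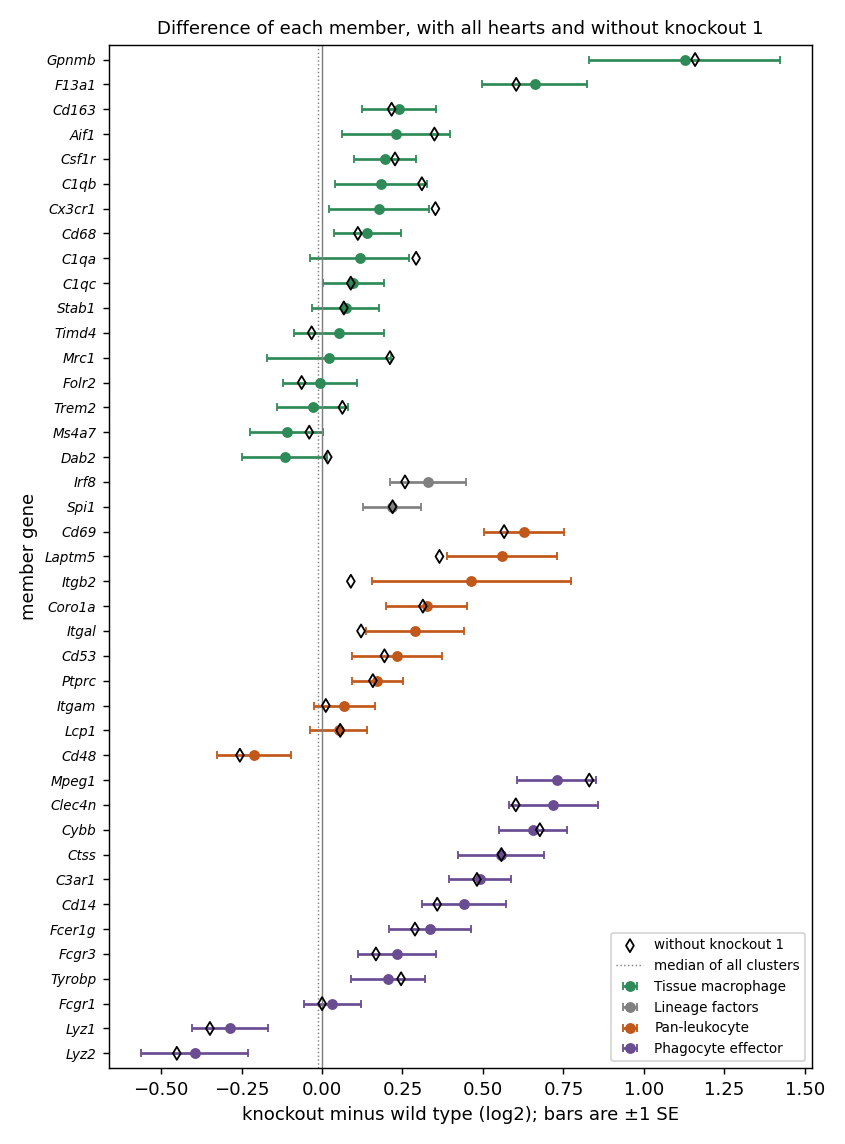
Knockout minus wild-type difference (log2) of each member, as points with 1 SE from limma, coloured by role, and without knockout heart 1 as open diamonds. The dotted line is the median of all clusters, -0.01. Without knockout heart 1 the tissue macrophage genes Cx3cr1, C1qa and Mrc1 move up and the pan-leukocyte genes Itgb2, Itgal and Laptm5 move down. The tissue macrophage genes F13a1, Timd4 and Folr2 move down too, and the phagocyte effector gene Mpeg1 moves up.

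The comparison of roles depended on knockout heart 1. With all hearts, the median difference was 0.12 for the 17 tissue macrophage markers and 0.31 for the 22 pan-leukocyte and phagocyte effector genes. Of these 22, 19 were higher and 10 lay wholly above, where 46.5% and 6.01% of all clusters did. Without knockout heart 1 these medians were 0.21 and 0.22. Without knockout heart 2 they were 0.07 and 0.32, and without knockout heart 3 0.11 and 0.36. The pan-leukocyte median alone went from 0.26 to 0.14 without knockout heart 1, and that of the phagocyte effector genes from 0.39 to 0.32. On the remaining 2 knockout hearts, 7 of 17 tissue macrophage markers and 11 of 22 others lay above all wild-type values, against 9.43% of all clusters. Below all wild-type values lay 0 of the 17 and 3 of the 22 (Cd48, Lyz1 and Lyz2), against 3196 of all 28767 clusters.

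Seen heart by heart, the mean of the tissue macrophage markers lay 0.08, 0.29 and 0.17 above the wild-type mean in knockout hearts 1 to 3. The mean of the other 22 lay 0.40, 0.30 and 0.16 above. Knockout heart 1 was the lowest knockout heart in 9 of the 17 tissue macrophage markers and the highest in 14 of the other 22. The tissue macrophage mean holds Gpnmb, which was 6.43, 7.21 and 5.86 in knockout hearts 1 to 3 against a wild-type mean of 5.37. The mean of the role leans on that gene in each knockout heart. In knockout heart 1 most of the small rise of 0.08 comes from Gpnmb. Taken apart, the pan-leukocyte mean lay 0.45, 0.21 and 0.12 above wild type in knockout hearts 1 to 3. The phagocyte effector mean lay 0.36, 0.38 and 0.19 above. The part of the megakaryocyte and erythroid signal of knockout heart 1 in this pattern was not tested.

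Genes of the same cells that are not members were examined from other lists, which were also chosen with earlier results of these data known. Most genes named from them are those with the lowest p in this same fit, up to 3 per direction. None of the 195 measured genes on the 15 lists passed limma's test over all clusters in either direction. Of 29 other macrophage genes, 20 were higher and 9 lower by mean, 2 lay wholly above the wild-type values, a share near the 6.01% of all clusters, and the median difference was 0.07. Their mean lay 0.11, 0.11 and 0.03 above wild type in knockout hearts 1 to 3. The inhibitory receptor gene Lilrb4a differed by 0.59 ± 0.15 (limma, adjusted p = 0.797), the lipoprotein and peptidoglycan receptor gene Tlr2 by 0.25 ± 0.10 and the scavenger receptor gene Msr1 by 0.41 ± 0.19. Lower were Cd180 at -0.14, Tlr7 at -0.11 and Cd83 at -0.10, of which Cd180 stood at -0.03 and Tlr7 at -0.02 without knockout heart 1. Adgre1, which encodes a surface antigen widely used to sort macrophages and was picked after its values were seen, was 6.39, 6.28 and 6.19 in wild-type hearts against 6.38, 6.34 and 6.44 in knockout hearts, a difference of 0.10 ± 0.09 with overlap.

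The partners of Cybb in the oxidase were mostly level. Of 5 measured, 3 were higher and 2 lower by mean. Ncf4, which encodes the p40 subunit, was 5.22, 5.40 and 5.50 in wild-type hearts against 5.82, 5.71 and 5.57 in knockout hearts, without overlap, at 0.33 ± 0.11 (limma, adjusted p = 0.797). Ncf1, encoding p47, differed by 0.08, Rac2 by 0.07 and Cyba, the membrane partner p22, by -0.05, while Rac1 was all but equal between the groups. Rac2 stood at -0.02 without knockout heart 1.

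Growth factors and chemokines that act on these cells were next. Of 11 colony-stimulating factor and progenitor cytokine genes 7 were higher and 4 lower, with a median of 0.04. Csf1, the ligand of the Csf1r product, was 7.34, 6.99 and 7.37 in wild-type hearts against 8.34, 7.44 and 7.32 in knockout hearts. Knockout heart 1 was the highest by far, and the difference of 0.46 ± 0.26 was 0.14 without it. Csf3r differed by 0.24. Kit, the stem cell factor receptor gene, was 8.56, 8.47 and 8.39 in wild-type hearts against 9.32, 8.52 and 8.51, high in knockout heart 1 alone, with 0.31 for all hearts and 0.04 without it. On the lower side Flt3 was at -0.11, Flt3l at -0.17 and Csf3 at -0.01. Of 13 chemokine and chemokine receptor genes 8 were higher and 5 lower, and 3 lay wholly above the wild-type values, against 6.01% of all clusters. Ccl3, a chemokine of activated macrophages, was 5.99, 6.01 and 5.79 against 6.85, 6.48 and 6.36. Every knockout heart was higher, at 0.63 ± 0.14 (limma, adjusted p = 0.797). Ccl9 differed by 0.40 ± 0.11 and Cxcr4, the receptor for CXCL12, by 0.51 ± 0.12, both without overlap. Cx3cl1, the ligand of the Cx3cr1 product, stood at -0.10, Ccl24 at -0.08 and the monocyte receptor gene Ccr2 at -0.04.

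Among 18 genes of leukocyte signalling 13 were higher and 5 lower by mean, and the list mean lay 0.48 above wild type in knockout heart 1 and 0.11 and 0.01 in hearts 2 and 3. Plek, or pleckstrin, a protein of platelets and leukocytes, was 6.71, 6.81 and 6.49 against 8.72, 7.43 and 7.13. All knockout hearts were higher, heart 1 by far, and the difference of 1.09 ± 0.37 was 0.61 without it. Cytip differed by 0.47 ± 0.14 and the adaptor gene Lcp2 by 0.31 ± 0.13, the latter 0.18 without knockout heart 1, whereas Plcg2 was at -0.17, Arhgdib at -0.15 and the kinase gene Syk at -0.07. Of 13 lysosome genes 9 were higher and 4 lower, led by Cd63 at 0.26 ± 0.10, Ctsb at 0.21 ± 0.12 and Lgmn at 0.17 ± 0.12. The mean of this list lay 0.18, 0.00 and 0.06 above wild type in knockout hearts 1 to 3, and its median of 0.10 was 0.04 without knockout heart 1, where Cd63 stood at 0.17, Ctsb at 0.12 and Lgmn at 0.04. Lower by mean were Grn at -0.11, Npc2 at -0.04 and Ctsd at -0.04.

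Of 13 blood transcription factor genes 6 were higher and 7 lower by mean. Runx1, needed for definitive blood formation, was 5.63, 5.87 and 5.74 in wild-type hearts against 6.85, 6.45 and 6.60 in knockout hearts. The groups did not overlap, with a difference of 0.89 ± 0.12 (limma, adjusted p = 0.601) that was 0.78 without knockout heart 1. Cebpb differed by 0.16, or 0.06 without that heart, and Maf by 0.12, and Irf5 by -0.11, Irf7 by -0.16 and Fli1 by -0.10, which was 0.04 without that heart.

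**Figure D4:**
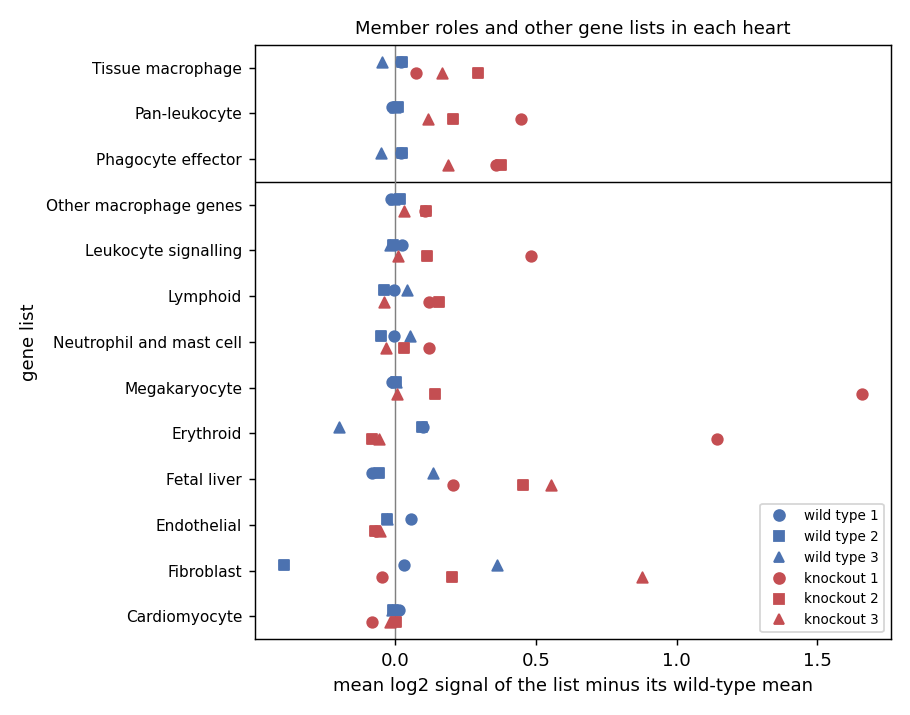
Mean log2 signal of each list minus its wild-type mean (x axis) in every heart, for 3 member roles above the line and 10 other lists below it. Symbols mark replicates, blue wild type and red knockout. Knockout heart 1 lies at 1.66 in the megakaryocyte and 1.14 in the erythroid list, and the fetal liver list is above wild type in all knockout hearts.

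Markers of other cells were set beside these values. Lymphoid genes were dim, with 15 of 17 below the median of all clusters and 9 under the lower quartile, and list means of 5.15, 5.11 and 5.20 in wild-type hearts against 5.27, 5.31 and 5.11 in knockout hearts, which overlapped. Il7r differed by 0.36 ± 0.16 and Cd3d by 0.23 ± 0.12. Neutrophil and mast cell genes were likewise dim, with 13 of 14 below the median and 8 under the lower quartile, and means of 5.05, 5.01 and 5.11 against 5.18, 5.09 and 5.03. Of these, Ctsg differed by 0.26 ± 0.09 and Ms4a2 by -0.34 ± 0.15. The arrays have no value that stands for absence, so the presence of these cells was not settled.

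The megakaryocyte list was 6.87, 6.88 and 6.88 in wild-type hearts against 8.53, 7.02 and 6.88 in knockout hearts. All 10 measured genes were higher by mean, and 2 lay wholly above, against 6.01% of all clusters. The lowest p-values were those of Ppbp, the platelet basic protein gene, at 1.22 ± 0.66 and the transcription factor gene Nfe2 at 0.36 ± 0.21. The median of 0.53 was 0.08 without knockout heart 1, and Ppbp stood at 0.34 and Nfe2 at 0.10. The erythroid list was 8.54, 8.54 and 8.24 against 9.58, 8.36 and 8.38, with Tfrc at 0.22 ± 0.13 and Rhag at 0.75 ± 0.47, and its median of 0.33 was -0.07 without knockout heart 1, with Tfrc at 0.09 and Rhag at 0.12. Among the knockout hearts, heart 1 was the highest in 4 and the lowest in 9 of the 17 tissue macrophage markers. In the 22 pan-leukocyte and phagocyte effector genes it was the highest in 14 and the lowest in 2. A link of these ranks to the blood genes was not tested.

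The fetal liver list was 5.25, 5.28 and 5.47 in wild-type hearts against 5.54, 5.78 and 5.89 in knockout hearts. Of its 9 genes, 7 were higher and 3 lay wholly above, against 6.01% of all clusters. Albumin, Alb, was 4.38, 4.89 and 5.13 against 5.83, 6.14 and 7.15, and Ahsg differed by 0.48 ± 0.10. The list mean lay 0.21, 0.45 and 0.55 above wild type in knockout hearts 1 to 3. Among the knockout hearts, Alb and Afp were highest in heart 3 and Fgb in heart 1. Ahsg, Apoa1, Apoa2, Ttr, Fga and Fgg were highest in heart 2. The phagocyte effector mean was 0.36, 0.38 and 0.19 above wild type in knockout hearts 1 to 3. The part of liver RNA in the member differences was not tested.

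Lists of structural cells of the heart were measured too. The endothelial list was 9.42, 9.34 and 9.34 in wild-type hearts against 9.30, 9.30 and 9.31 in knockout hearts, with Tek at -0.22 and Npr3 at -0.18. The cardiomyocyte list was 12.60, 12.58 and 12.58 against 12.51, 12.60 and 12.57, with the factor gene Nkx2-5 at -0.17 ± 0.08 and Nppa, the atrial natriuretic peptide gene, at 0.16 ± 0.09. Fibroblast and mesenchyme genes varied within both groups, at 9.99, 9.56 and 10.32 against 9.91, 10.16 and 10.84, led by Postn at 0.77 ± 0.35 and Lum at 0.97 ± 0.62. Knockout heart 3, the highest of that list, was the lowest knockout heart in 10 of the 12 phagocyte effector genes. The part of fibroblast RNA in the member differences was not tested. The macrophage markers Csf1r, Cybb and Mpeg1 were measured in every heart, and their level cannot be turned into a number of cells.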

How the data were processed

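Total RNA of 3 wild-type and 3 knockout hearts was measured on 6 arrays. The deposited values are log2 signals made with RMA by the authors, per the submitters' processing notes; RMA corrects background, equalises the arrays' distributions and shrinks dim differences. The annotation gave 1 symbol to 21776 of 28767 clusters, several to 1618 and none to 5373, and 21686 of the single symbols matched the RefSeq gene table (GRCm38.p6). No dim cluster was removed. All clusters were fitted with limma 3.58.1 in R 4.3.3 (lmFit and eBayes, 2-sided, Benjamini-Hochberg), which gave each SE; the fit was tested on simulated data. No date or batch is given, and the number of arrays limits the precision.

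The members and lists were chosen with earlier results of these data known. Named were all members, up to 3 genes per direction with the lowest p of each blood gene list, up to 2 of every other list, and Itgb1. Differences are knockout minus wild type. Replicate numbers were not treated as pairs in the main fit. Alternatives were renormalization, a filter on dim clusters, array weights, trended and robust variances, a replicate block, the mean of a gene's clusters, and leaving out each heart.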

Additional observations from a re-analysis of the deposited data

How the results depend on the processing

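No cluster passed an adjusted p of 0.05 (limma) under any alternative except 0 to 1 when single hearts were left out; the 1 came without knockout heart 1 and was AI506816, not a member, chosen here by that value. Limited to clusters at or above the median level, 19 members remained, of which 16 were higher and 6 lay wholly above. The matching shares over the clusters kept are not given here, so nothing is read from these counts. Under array weights the tissue macrophage median was 0.18 and the pan-leukocyte median 0.15. Leaving out single hearts gave medians of 0.072 to 0.211 for tissue macrophage, 0.14 to 0.32 for pan-leukocyte and 0.32 to 0.48 for phagocyte effector members. The medians were 0.22 to 0.36 for the latter 2 roles together and 0.16 to 0.22 for all members. In these runs 32 to 35 members were higher and 16 to 21 lay wholly above. Groups with a heart fewer separate more easily. Over all clusters 9.43% lay wholly above without knockout heart 1, against 6.01% with all hearts. Without that heart 19 members did, against 15 with all hearts. The shares over all clusters without each other heart are not given, so nothing is read from the rise. With the replicate number as a block the member median was 0.20 (log2) and 0 clusters passed. Deviations of same-numbered hearts correlated at -0.04, -0.03 and -0.06. These values show no sign of pairing by number, but with 3 hearts per group they cannot exclude it. Of 41 members, 32 kept their sign under every alternative run and 9 turned it in at least 1, 3 of them in an alternative other than leaving out a heart. The count of members wholly above and the median of the 2 roles together were added after the data were seen. Another scaling moved the median of all clusters by at most 0.02, and cyclic loess put 50.9% of clusters higher.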
